A study of Mus musculus with 8 samples.

Results

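The genes that license replication origins, unwind the DNA there and copy it at the fork were followed in MB21 cells treated with DS-1-38 or with its vehicle. They are 51 genes, chosen by their role in replication and matched by symbol in a table of 55416 gene identifiers, and they fall into 12 steps from origin recognition to chromatin assembly behind the fork. MB21 is a mouse medulloblastoma line that the labels call ptch mutant without naming the allele, and Ptch1 encodes the receptor that restrains Hedgehog signalling. All 8 libraries come from this line, grown unattached in serum-free medium. The 4 libraries called DS38 received 10 uM DS-1-38, described by the series as derived from benzarone, for 5 days, and the 4 called DMSO received vehicle for the same time. The labels do not say whether the 4 libraries of a group are separate cultures, so p-values measure the spread between these libraries, which may be technical.

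Replication begins in G1, when the origin recognition complex, with Cdc6 and Cdt1, loads the MCM2-7 helicase onto DNA in an inactive form. In S phase the kinase Cdc7 with its activator Dbf4, and firing factors such as Ticrr, Topbp1 and Recql4, turn that helicase on by adding Cdc45 and the GINS complex. Polymerase alpha with primase then starts each strand, and polymerases delta and epsilon extend it on the sliding clamp Pcna. Many of these genes are classical targets of E2F transcription factors, and proliferation driven by Hedgehog signalling is a hallmark of the granule neuron progenitors from which this tumour arises.

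Read totals ran from 17142397 to 28476019 counts per library, and every replication gene passed the filter on low counts, with 181 to 28938 counts in a library. The 10 granule neuron progenitor and medulloblastoma markers, Atoh1, Zic1 and Gli1 among them, were all expressed, at a summed 1879 to 1932 CPM (read counts scaled to a common library total) in DMSO and 2010 to 2108 in DS38. Within that list 5 were called higher and 3 lower by edgeR's test, where 18.8% of all tested genes were called higher and 20.7% lower. Barhl1 (log2 fold change 0.71) and Atoh1 (0.60) were up, and the Hedgehog target genes Gli1 (-0.60) and Ptch1 (-0.56) were down. Of the 5 microglia and macrophage markers, Cx3cr1 had 0 counts and the list summed to at most 0.140 CPM in any library. The 4 endothelial markers summed to at most 1.81 CPM, with Cldn5 at 0 counts, and the 5 oligodendrocyte markers to at most 15.2 CPM. The 5 fibroblast markers summed to 2.01 to 2.77 CPM in DMSO and 3.15 to 4.35 CPM in DS38, and Col1a1, a collagen gene with 2 to 27 counts per library, was called higher (log2 fold change 1.81, adjusted p = 0.0016 in edgeR). Of the 5 astrocyte markers, Slc1a2 alone stood high (247 CPM), and the other 4 together stayed at or under 4.39 CPM. Among those, Gfap was called higher, at 29 to 95 counts per library (log2 fold change 0.75, adjusted p = 0.00421 in edgeR), with every DS38 library above every DMSO library. The part of these cell markers in the results below was not tested.

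Most replication genes were lower after 5 days with DS-1-38. Of the 51, 41 fell, 1 rose and 9 did not pass edgeR's quasi-likelihood test at a Benjamini-Hochberg adjusted p under 0.05, where the fall was called in 20.7% and the rise in 18.8% of the 15133 genes tested. The log2 fold change, DS38 over DMSO, had a median of -0.28 over the 51 genes and of -0.01 over all genes. The falls were moderate. None of the 51 reached a 2-fold change, and 6 lay below -0.5 on the log2 scale (Cdc45, Pcna, Gmnn, Prim1, Gins1 and Cdt1). In 37 genes every DS38 library stood below every DMSO library, an arrangement seen in 18.8% of all tested genes. In bulk RNA, fewer cells in S phase and less of these transcripts per cell cannot be told apart.

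The 4 DS38 libraries stood apart in pairs. Over all genes the chi-square per degree of freedom between 2 libraries was 3.98 to 4.29 within replicates 1 and 2 and within replicates 3 and 4, but 10.5 to 18.5 across those pairs, against 4.25 to 7.59 among the DMSO libraries. Among the DMSO libraries the same grouping was present but weaker. Replicates 1 and 2 gave 4.64 and replicates 3 and 4 gave 4.25, against 4.85 to 7.59 across those pairs. Read totals were also higher in replicates 1 and 2 of both treatments (23185774 to 28476019) than in replicates 3 and 4 (17142397 to 19945072). The labels name no batch, and the part of this split in the results was not tested. Without DS38 replicates 1 and 2, an alternative chosen after seeing the data, 35 of the 51 genes fell and Orc4 rose. The falls lost were those of Cdc7, Gins2, Pold1, Pole2, Rfc1 and Fen1 (edgeR adjusted p of 0.168, 0.112, 0.0695, 0.332, 0.110 and 0.211). Without DS38 replicates 3 and 4, 38 fell and Orc4 rose, and Gins3, Ticrr and Rfc1 were lost (0.166, 0.181 and 0.169).

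The lower summed level was seen in both pairs. Summed over the 51 genes, the level was 7601, 7400, 7538 and 7221 CPM in DMSO replicates 1 to 4 and 6124, 6259, 6162 and 6442 CPM in DS38 replicates 1 to 4. The groups did not overlap in this sum. In each DS38 library 46 to 49 of the 51 genes lay below their DMSO mean. In DMSO replicate 4, whose sum was the lowest of its group, 46 genes did too, but the median log2 ratio to the DMSO mean was -0.04 there and -0.25 to -0.30 in the DS38 libraries.

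**Figure D1:**
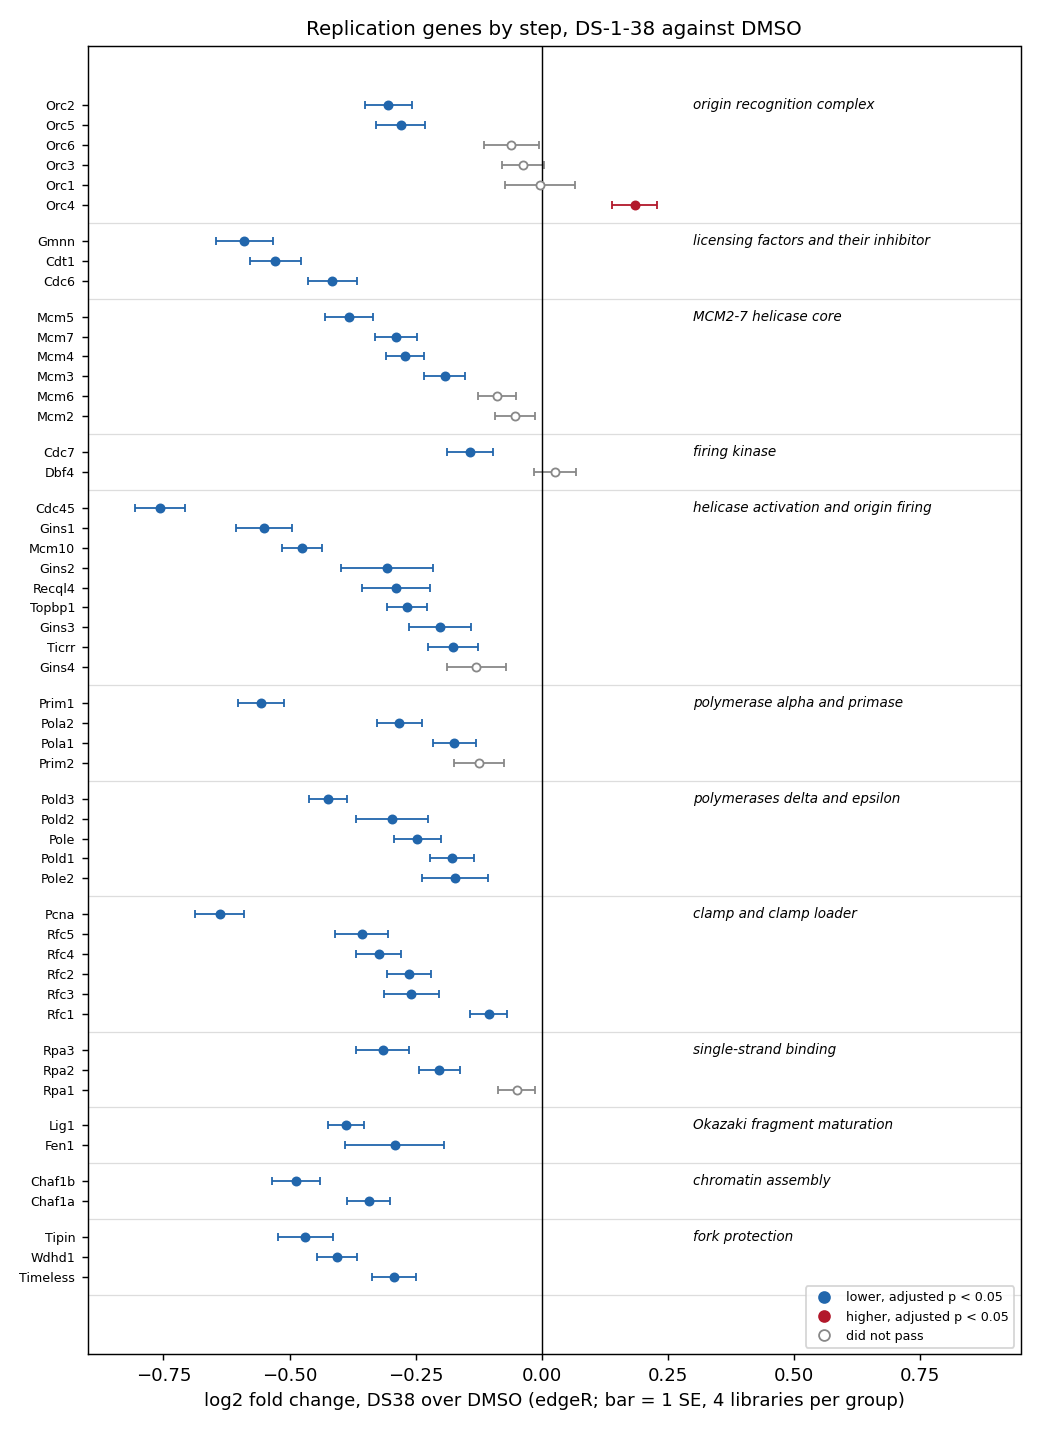
Log2 fold change of each of the 51 replication genes, DS38 over DMSO, grouped by step of replication; points are edgeR estimates, bars are 1 SE (4 libraries per group), filled blue points fell, the filled red point rose and open grey points did not pass. Cdc45 lies farthest left at -0.76, and Orc4, at 0.18, is the 1 gene that rose.

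Promoters are shown for 5 of these genes because they include falls with an E2F motif (Cdc6 and Mcm5), falls without one in the stretch shown (Cdc45 and Pcna), and a gene with the motif that did not pass (Mcm6). Each sequence is the 250 bases before the start of the gene in RefSeq, build GRCm38.p6, whereas the processing notes of the counts name GRCm39. Capitals mark E2F motifs (TTTCCCGC, TTTCGCGC, TTTGCCGC or TTTGGCGC) and the CCAAT box, on either strand, and overlapping E2F matches run together. The positions are chr16:18811973-18812222 (minus strand) for Cdc45, chr2:132253181-132253430 (minus) for Pcna, chr11:98907901-98908150 (plus) for Cdc6, chr8:75109259-75109508 (plus) for Mcm5 and chr1:128359706-128359955 (minus) for Mcm6.
Cdc45: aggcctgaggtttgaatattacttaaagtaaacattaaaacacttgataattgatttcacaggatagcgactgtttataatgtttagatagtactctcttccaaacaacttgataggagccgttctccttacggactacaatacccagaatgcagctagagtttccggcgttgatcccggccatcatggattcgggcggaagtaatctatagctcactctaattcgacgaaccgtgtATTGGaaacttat
Pcna: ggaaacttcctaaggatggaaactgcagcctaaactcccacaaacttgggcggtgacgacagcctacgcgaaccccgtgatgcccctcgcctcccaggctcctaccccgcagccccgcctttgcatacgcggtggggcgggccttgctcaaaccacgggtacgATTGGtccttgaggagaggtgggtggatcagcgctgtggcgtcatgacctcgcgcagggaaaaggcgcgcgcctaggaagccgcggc
Cdc6: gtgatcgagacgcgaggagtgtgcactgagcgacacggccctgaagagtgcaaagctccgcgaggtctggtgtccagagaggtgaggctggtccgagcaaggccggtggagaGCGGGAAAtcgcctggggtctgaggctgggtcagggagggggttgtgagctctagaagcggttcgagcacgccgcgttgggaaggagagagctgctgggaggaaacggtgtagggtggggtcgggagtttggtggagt
Mcm5: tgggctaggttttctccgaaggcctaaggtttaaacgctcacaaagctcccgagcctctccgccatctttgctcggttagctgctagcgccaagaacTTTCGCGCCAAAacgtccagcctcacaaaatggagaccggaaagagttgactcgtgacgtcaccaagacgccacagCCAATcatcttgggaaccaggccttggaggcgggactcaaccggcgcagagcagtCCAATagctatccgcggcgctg
Mcm6: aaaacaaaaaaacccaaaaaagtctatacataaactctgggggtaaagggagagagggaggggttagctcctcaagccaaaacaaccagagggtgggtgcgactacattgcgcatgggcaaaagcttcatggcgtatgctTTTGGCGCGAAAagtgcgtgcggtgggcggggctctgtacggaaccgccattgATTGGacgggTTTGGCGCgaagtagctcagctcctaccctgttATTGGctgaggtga

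The E2F letters stood 138 bases before the start in Cdc6, overlapping at 153 and 149 bases in Mcm5, and at 110, 106 and 47 bases in Mcm6. They were absent from these stretches of Cdc45 and Pcna, each of which held 1 CCAAT box, at 13 and 87 bases. Promoters of 41 of the 51 genes were in the table. In the full 300-base windows, which run 50 bases past the start, 16 of those 41 genes (39.0%) held an E2F motif, against 4.80% of the 10150 tested genes with a promoter there. The CCAAT box was in 23 of the 41 (56.1%) and in 43.3% of the tested genes. Falls occurred with and without the motif. Of the 16 with an E2F motif 13 fell and 3 did not pass (Orc1, Orc3 and Mcm6), with a median log2 fold change of -0.23. Of the 25 without it 20 fell, 1 rose and 4 did not pass, with a median of -0.29. A match describes the letters alone, and binding was not measured here.

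The origin recognition complex, which marks the sites of loading, split in its response. Of the 6 subunits of the complex, Orc2 and Orc5 fell, Orc4 rose, and Orc1, Orc3 and Orc6 did not pass. Orc4 stood at 68.1, 67.2, 60.6 and 63.5 CPM in DMSO and at 74.2, 72.6, 75.4 and 73.2 CPM in DS38. All 4 DS38 libraries were higher than any DMSO library (log2 fold change 0.18 with an SE of 0.044, adjusted p = 0.00291 in edgeR), an arrangement found in 17.3% of tested genes. Orc2 went the other way, from 143, 139, 151 and 130 CPM in DMSO to 109, 117, 110 and 119 CPM in DS38 (log2 fold change -0.30 with an SE of 0.047, adjusted p = 5.94e-05 in edgeR). In the annotation, 29.8% of the exonic bases of Orc2 lie opposite exons of Nif3l1, and the strand setting of the counting is not given, so its counts are uncertain. For Orc4, 7.80% of exonic bases lie opposite other genes, chiefly Acvr2a.

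Orc5 had a log2 fold change of -0.28 (adjusted p = 0.000185, edgeR), with no overlap between the groups. Orc1, the large ATPase subunit that recruits Cdc6, was among the least expressed of the 51 genes per kilobase of deposited gene length. It stood at 4.72 ± 0.20 CPM per kilobase in DMSO (SD, n = 4). Fen1, at 4.79 ± 0.62, and Recql4, at 5.12 ± 0.31, lay close to it there, and in DS38 both were lower than Orc1 (3.95 and 4.21 against 4.72 CPM per kilobase). The level of Fen1 per kilobase is uncertain, as 84.2% of its exonic bases lie opposite other genes. The Orc1 libraries read 17.3, 15.6, 16.5 and 16.2 CPM in DMSO and 15.2, 16.3, 16.7 and 17.5 CPM in DS38, fully interleaved (adjusted p = 0.977, edgeR). Orc3 and Orc6 had log2 differences of -0.04 ± 0.042 SE and -0.06 ± 0.055 SE.

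The licensing factors and their inhibitor fell together. Cdt1, which brings the helicase to the origin, stood at 100.5, 98.1, 102.9 and 96.5 CPM in DMSO and at 73.0, 69.3, 61.0 and 72.1 CPM in DS38 (log2 fold change -0.53 with an SE of 0.050, adjusted p = 2.12e-07 in edgeR). Gmnn, which encodes geminin, the protein that binds Cdt1 and blocks a further round of loading, stood at 46.2, 47.2, 44.4 and 40.7 CPM in DMSO and at 27.8, 31.2, 29.2 and 30.4 CPM in DS38. Its log2 fold change was -0.59 ± 0.057 SE (adjusted p = 2.29e-07, edgeR). For both genes every DS38 library lay below every DMSO library. Cdc6, the ATPase that joins the origin complex before loading, fell to 75.0% of its DMSO level (log2 fold change -0.41; adjusted p = 2.35e-06, edgeR).

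The MCM2-7 genes encode the ring that becomes the core of the helicase, and they did not fall evenly. Mcm5, Mcm7, Mcm4 and Mcm3 fell, with log2 fold changes of -0.38, -0.29, -0.27 and -0.19, whereas Mcm2 and Mcm6 did not pass. Mcm5 stood at 324, 324, 306 and 292 CPM in DMSO and at 228, 244, 226 and 258 CPM in DS38, without overlap (adjusted p = 5.59e-06, edgeR). Mcm2 stood at 366, 358, 354 and 351 CPM in DMSO and at 336, 342, 334 and 365 CPM in DS38. DS38 replicate 4 reached into the DMSO range, and on the log2 scale it lay at -0.05 ± 0.040 SE (adjusted p = 0.302, edgeR).

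Mcm6 had the highest level of the 51 genes per kilobase of deposited gene length, at 228 ± 6.58 CPM per kilobase in DMSO (SD, n = 4). Pcna followed at 205 ± 10.8 and Mcm7 at 95.7 ± 4.05. Mcm7 and Rpa3, at 95.5 ± 5.60 CPM per kilobase, did not differ beyond their spread. The Mcm6 libraries read 1068, 1043, 1108 and 1043 CPM in DMSO and 1002, 996, 999 and 1011 CPM in DS38. Every DS38 library was lower, but the log2 difference of -0.09 ± 0.038 SE did not pass (adjusted p = 0.0756, edgeR), though it passed in DESeq2's Wald test (adjusted p = 0.0189). The 6 genes of the ring thus spanned log2 differences from -0.38 to -0.05. The Mcm7 exons overlap other genes over 12.6% of their bases.

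Genes that switch the helicase on held the largest fall of the 51. Cdc45, the factor that completes the active helicase, stood at 78.8, 80.7, 77.8 and 76.2 CPM in DMSO and at 43.9, 49.3, 43.2 and 49.0 CPM in DS38. No library overlapped, and the level fell to 59.2% of DMSO (log2 fold change -0.76 with an SE of 0.049, adjusted p = 1.24e-09 in edgeR). In the annotation 5.96% of the exonic bases of Cdc45 lie opposite other genes, chiefly Ufd1. Mcm10, which helps the new helicase to start moving, fell from 120, 122, 131 and 124 CPM to 88.7, 89.7, 88.4 and 90.9 CPM (log2 fold change -0.47 with an SE of 0.040, adjusted p = 3.66e-08 in edgeR). Topbp1 and Ticrr, which bring Cdc45 to the helicase, fell by 0.27 and 0.18 on the log2 scale, and Recql4, a firing factor of the RecQ helicase family, fell by 0.29. The Ticrr libraries overlapped, at 74.8 to 83.6 CPM in DMSO and 67.1 to 74.9 CPM in DS38. Its call was lost under scaling by library totals alone (adjusted p = 0.0769), and without DS38 replicates 3 and 4 its log2 fold change shrank to -0.10.

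The GINS genes, whose products ride with Cdc45 on the helicase, were graded. Gins1 fell from 42.0, 43.2, 45.1 and 38.6 CPM to 28.0, 30.0, 27.7 and 29.3 CPM (log2 fold change -0.55 with an SE of 0.055, adjusted p = 4.19e-07 in edgeR). Gins2 had a log2 fold change of -0.31 ± 0.090 SE (adjusted p = 0.0141, edgeR), and DS38 replicate 4 at 24.1 CPM overlapped the DMSO libraries at 22.4 to 27.8 CPM. Without both libraries numbered 1 the log2 fold change of Gins2 shrank to -0.19 (adjusted p = 0.0938, edgeR). Of its exonic bases 67.3% lie opposite exons of Gse1, a gene with 35658 counts over the 8 libraries, so the counts of Gins2 are uncertain.

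Gins3 fell by 0.20 on the log2 scale (adjusted p = 0.0141, edgeR). It did not pass without DMSO replicate 1 (0.0509) or DS38 replicate 3 (0.0569), or with library totals alone (0.0795). Without DS38 replicates 3 and 4 its log2 fold change was -0.13. Gins4 did not pass (log2 difference -0.13 with an SE of 0.059, adjusted p = 0.0909 in edgeR), but passed without DMSO replicate 3 (0.0324). Without DMSO replicate 1 the difference was -0.08 (0.307), and without both libraries numbered 1 it was -0.04 (0.659). The kinase that acts before these factors has a catalytic subunit, Cdc7, and an activator, Dbf4. Cdc7 fell by 0.14 on the log2 scale (adjusted p = 0.0185, edgeR). It did not pass without DMSO replicate 1 (0.0519) or DS38 replicate 2 (0.0826), and with library totals alone it shrank to -0.08 (0.166). Dbf4 read 143, 138, 131 and 129 CPM in DMSO and 140, 136, 136 and 139 CPM in DS38, so the DS38 values lay inside the DMSO range (log2 difference 0.03 with an SE of 0.041, adjusted p = 0.644 in edgeR).

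**Figure D2:**
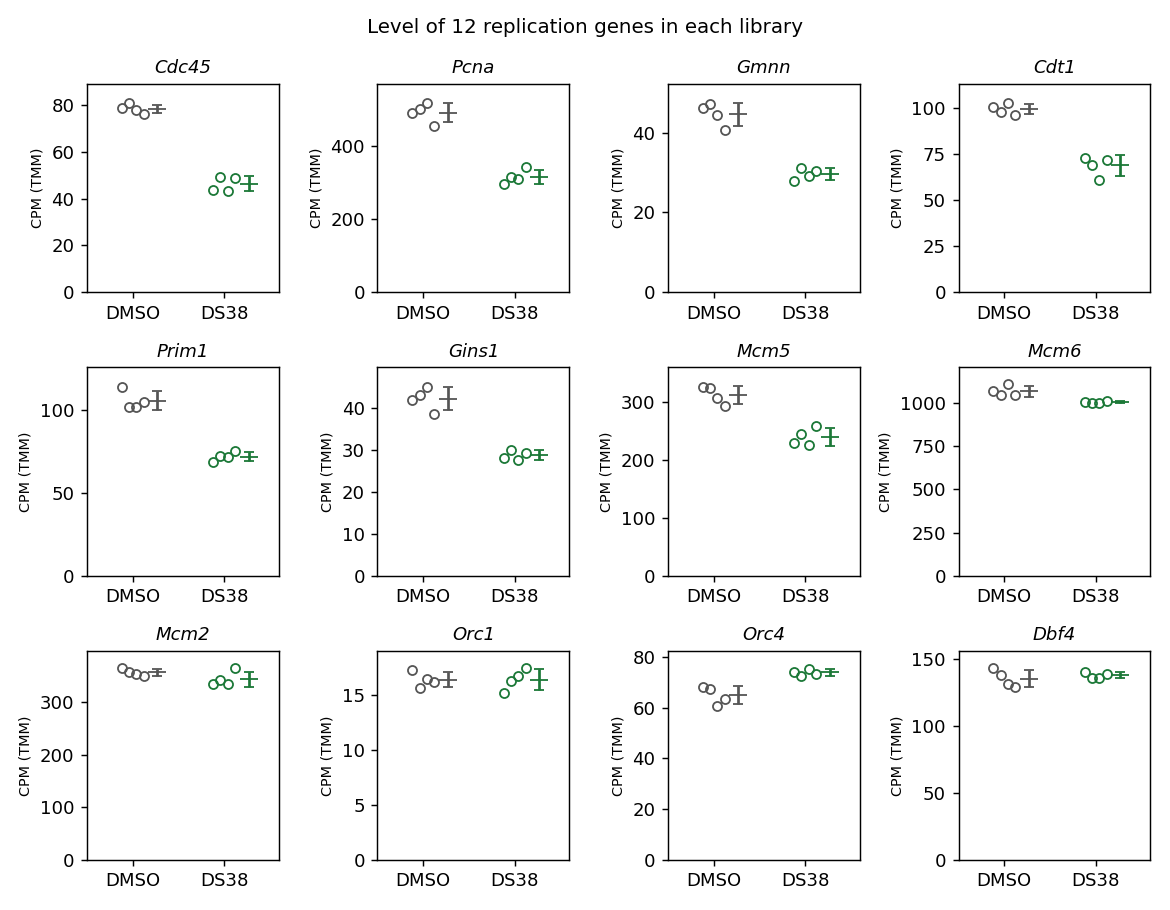
Level of 12 replication genes in each library, in TMM-adjusted CPM on linear axes that start at 0; circles are libraries (replicates 1 to 4 from left to right), and the mark beside them is the mean with its SD. Cdc45, Pcna, Gmnn, Cdt1, Prim1, Gins1, Mcm5 and Mcm6 are lower in every DS38 library, though Mcm6 did not pass. Orc4 is higher, and Mcm2, Orc1 and Dbf4 overlap between the groups.

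Priming and polymerase genes fell in 8 of 9 cases. Prim1, the catalytic subunit of primase, went from 114, 102, 102 and 105 CPM in DMSO to 68.4, 72.4, 71.2 and 75.0 CPM in DS38. Every DS38 library was lower (log2 fold change -0.56 with an SE of 0.046, adjusted p = 3.17e-08 in edgeR). Prim2, the regulatory subunit, differed by -0.12 (SE 0.049) on that scale and did not pass (adjusted p = 0.0528, edgeR). It passed without DMSO replicate 3 (0.0219), without DS38 replicate 2 (0.0303) and with no filter on low counts (0.0463). Pola1, the catalytic subunit of polymerase alpha, and Pola2, its accessory subunit, had log2 fold changes of -0.17 and -0.28.

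Of the polymerases that extend the strands, the catalytic subunits Pold1 (log2 fold change -0.18; adjusted p = 0.00323, edgeR) and Pole (-0.25, 0.000368) fell, as did the accessory subunit Pold3 (-0.42, 1.19e-07). Pold3 libraries read 89.7, 88.3, 88.2 and 88.4 CPM in DMSO and 65.6, 67.8, 64.4 and 66.4 CPM in DS38, without overlap. Pold2, another delta subunit, fell by 0.30 on the log2 scale with overlapping groups, as DS38 replicate 4 (81.6 CPM) stood above DMSO replicate 4 (80.7 CPM). Pole2, the B subunit of polymerase epsilon, was the weakest call of the 41 (log2 fold change -0.17 with an SE of 0.066, adjusted p = 0.0473 in edgeR), and its groups overlapped. That call was lost without DMSO replicate 1, 3 or 4 (adjusted p of 0.184, 0.0582 and 0.0535) and without DS38 replicate 1, 2 or 3 (0.0871, 0.159 and 0.0903). Without DMSO replicate 1 the log2 fold change itself shrank to -0.10, without DS38 replicates 1 and 2 to -0.11, and without both libraries numbered 1 to -0.09. With library totals alone it was -0.11 (0.182).

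All genes of the clamp and its loader fell. Pcna, the sliding clamp that tethers the polymerases, stood at 493, 502, 519 and 457 CPM in DMSO and at 297, 315, 312 and 343 CPM in DS38. The groups were far apart, and the level in DS38 was 64.2% of that in DMSO (log2 fold change -0.64 with an SE of 0.048, adjusted p = 9.49e-09 in edgeR). The loader genes Rfc5, Rfc4, Rfc2 and Rfc3 had log2 fold changes of -0.36, -0.32, -0.26 and -0.26, each without overlap between the groups. In the annotation 10.7%, 12.7% and 15.1% of the exonic bases of Rfc5, Rfc4 and Rfc2 lie opposite other genes.

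Rfc1, the large subunit of the loader, had the smallest fall of the 41, from 239, 236, 252 and 238 CPM to 224, 226, 227 and 220 CPM (log2 fold change -0.11 with an SE of 0.037, adjusted p = 0.0314 in edgeR). The libraries did not overlap. The call was lost without DMSO replicate 3 (0.0819) and without DS38 replicate 1, 2, 3 or 4 (0.0626, 0.0648, 0.0679 and 0.0851). With library totals alone the log2 fold change of Rfc1 shrank to -0.04 (0.358).

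The genes of single-strand binding, Okazaki fragment maturation, chromatin assembly and fork protection were lower as well, with 2 of 3, 2 of 2, 2 of 2 and 3 of 3 called. Of the RPA genes, which coat unwound DNA, the small subunits Rpa3 (log2 fold change -0.32) and Rpa2 (-0.20) fell, whereas the large subunit Rpa1 had a log2 difference of -0.05 ± 0.037 SE (adjusted p = 0.310, edgeR). Lig1, the ligase that seals Okazaki fragments, stood at 224, 217, 225 and 218 CPM in DMSO and at 167, 168, 171 and 170 CPM in DS38. These libraries were tightly grouped and did not overlap (log2 fold change -0.39 with an SE of 0.036, adjusted p = 1.36e-07 in edgeR).

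Fen1, the flap nuclease that prepares those fragments, was counted at only 11.6 ± 1.51 CPM in DMSO and 9.56 ± 0.79 in DS38 (SD, n = 4 each), with overlapping groups. Of its exonic bases 84.2% lie opposite exons of other genes, chiefly Gm10143, so its counts are uncertain. Its log2 fold change was -0.29 ± 0.098 SE (adjusted p = 0.0248, edgeR), and the call was lost without DMSO replicate 1 (0.115), DS38 replicate 1 (0.0565) or DS38 replicate 2 (0.0815). Without both libraries numbered 1 the log2 fold change was -0.17 (0.202).

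Chaf1a and Chaf1b, subunits of the chaperone that deposits histones on new DNA, fell by 0.34 and 0.49 on the log2 scale (edgeR adjusted p of 4.68e-06 and 2.97e-07). Chaf1b libraries read 103.1, 98.0, 92.3 and 99.5 CPM in DMSO and 68.1, 70.5, 66.2 and 75.6 CPM in DS38. For Chaf1a, 52.5% of exonic bases lie opposite Ubxn6, and its counts are uncertain. The fork protection genes Tipin and Timeless, which travel with the helicase as a pair, had log2 fold changes of -0.47 and -0.29, and Wdhd1, which links helicase and polymerase alpha, had one of -0.41. For all 5 genes every DS38 library was lower than every DMSO library.

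Partners within a step were then compared inside each library, where their ratio does not depend on scaling. The 8 pairs were chosen by function, but with earlier results of these data known, and the p-values do not account for that choice. The groups did not overlap in 4 pairs, each at the smallest p that an exact two-sided permutation test of 4 against 4 libraries can give (p = 0.0286, Benjamini-Hochberg adjusted p = 0.0571 over the 8 pairs). None therefore passed after adjustment. Pola1 to Prim1 counts stood at 1.23, 1.31, 1.504 and 1.33 in DMSO and at 1.83, 1.74, 1.74 and 1.68 in DS38, which is 0.38 ± 0.066 SE apart on the log2 scale. Orc1 to Orc2 went from 0.117 ± 0.0072 to 0.144 ± 0.0060 (SD, n = 4 each), with a log2 difference of 0.30 ± 0.054 SE. In the annotation, 29.8% of the exonic bases of Orc2 and 10.8% of those of Orc1 lie opposite other genes, so this ratio is uncertain.

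The ratio of Rfc1 to Rfc4 differed by 0.22 ± 0.051 SE and that of Dbf4 to Cdc7 by 0.17 ± 0.035 SE on the log2 scale, higher in DS38. These are the remaining pairs without overlap. Of the exonic bases of Rfc4, 12.7% lie opposite other genes, chiefly Eif4a2, a gene with 48544 counts over the 8 libraries. Cdt1 and Gmnn, licensing factor and inhibitor, stood at a ratio of 2.24 ± 0.133 in DMSO and 2.33 ± 0.229 in DS38 (SD, n = 4 each), with overlapping libraries (exact permutation p = 0.514, adjusted p = 0.514). The log2 difference of 0.05 ± 0.083 SE does not show that the ratio was the same, and it ran from -0.0060 without DS38 replicate 1 to 0.10 without DS38 replicate 3. Timeless to Tipin, Chaf1a to Chaf1b and Pold1 to Pole overlapped as well (exact permutation p of 0.0857, 0.114 and 0.343, adjusted p of 0.137, 0.152 and 0.392). The Pold1 to Pole difference of 0.07 on the log2 scale was -0.0018 without DS38 replicates 3 and 4 and 0.14 without replicates 1 and 2. The Timeless to Tipin difference of 0.18 was 0.11 without DS38 replicate 1 and 0.09 without replicates 1 and 2.

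**Figure D3:**
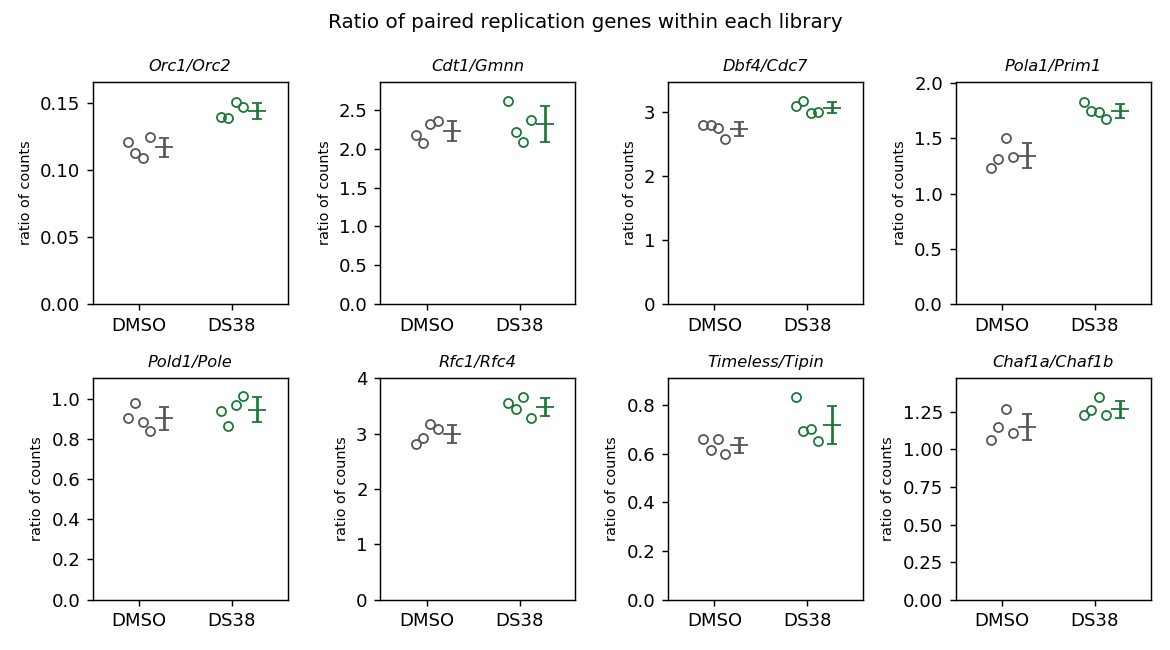
Ratio of read counts of 8 pairs of replication genes within each library, on linear axes that start at 0; circles are libraries (replicates 1 to 4 from left to right), and the mark beside them is the mean with its SD. The DMSO and DS38 libraries are apart for Orc1/Orc2, Dbf4/Cdc7, Pola1/Prim1 and Rfc1/Rfc4 and overlap for the other 4.

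Further replication genes outside the 51 moved mostly the same way. Falls were called for 21 of the 33 on that list and rises for 2, against 20.7% and 18.8% of all tested genes. The other 10 did not pass, and the median log2 fold change of the list was -0.23. Donson, a helicase assembly factor, fell by 0.64 on the log2 scale, the clamp-associated gene Pclaf by 0.42, and Mtbp, the partner of Ticrr, by 0.41. Dtl, which targets Cdt1 for destruction, fell by 0.34, the clamp unloader gene Atad5 by 0.34 and the topoisomerase gene Top2a by 0.28. The 2 that rose were Top1, the other main topoisomerase gene of the fork (log2 fold change 0.25; adjusted p = 0.00014, edgeR), and Lrwd1, which encodes a partner of the origin recognition complex (0.17, 0.0228). The Lrwd1 call was lost without DMSO replicate 2, 3 or 4 (0.0589, 0.0729 and 0.0542), without DS38 replicate 2 (0.0521), in DESeq2 (0.0511) with no filter on low counts (0.0539) and without DS38 replicates 1 and 2 (0.119). Of the 21 falls, 4 were lost in some alternative, namely Mcmbp in 12 of 17, Asf1a in 11, and Ssrp1 and Ctc1 in 2 each.

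Genes that act beside replication in the cycle were counted in the same fit, where 20.7% of all tested genes fell and 18.8% rose. Of 12 deoxynucleotide supply genes 9 fell (2 of them lost in some alternative) and 3 did not pass, with Rrm2 (log2 fold change -0.79), Tk1 (-0.57) and Dut (-0.55) among the falls. Of 12 E2F factors and S-phase cyclins 9 fell and 3 did not pass, among the falls the cyclin gene Ccne2 (-0.71), its kinase gene Cdk2 (-0.33) and the E2F genes E2f2 (-0.48) and E2f8 (-0.32). The fall of E2f6 in that count was lost in 14 of 17 alternatives and that of E2f4 in 2. The other cyclin genes of that list, Ccne1 (log2 difference -0.14, adjusted p = 0.0532 in edgeR) and Ccna2 (-0.03, 0.588), did not pass. Of 14 mitosis genes, by contrast, 7 rose, 2 fell and 5 did not pass, with a median log2 fold change of 0.20. Cenpe (0.43), Ccnb2 (0.30), Tpx2 (0.29) and Ccnb1 (0.28), genes of kinetochore, spindle and mitotic cyclins, rose. Aurkb (-0.27), a mitotic kinase gene, and Kif11 (-0.16), a spindle motor gene, fell. The Kif11 call was lost with library totals alone (log2 fold change -0.10, adjusted p = 0.0597 in edgeR) and without DS38 replicates 3 and 4 (0.0589). The rise of Cenpf, a kinetochore gene and another of the 7, was lost in 5 alternatives, and its log2 fold change of 0.42 shrank to 0.27 without DS38 replicates 1 and 2. The lists were set side by side as counts, and the difference between them was not tested.

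**Figure D4:**
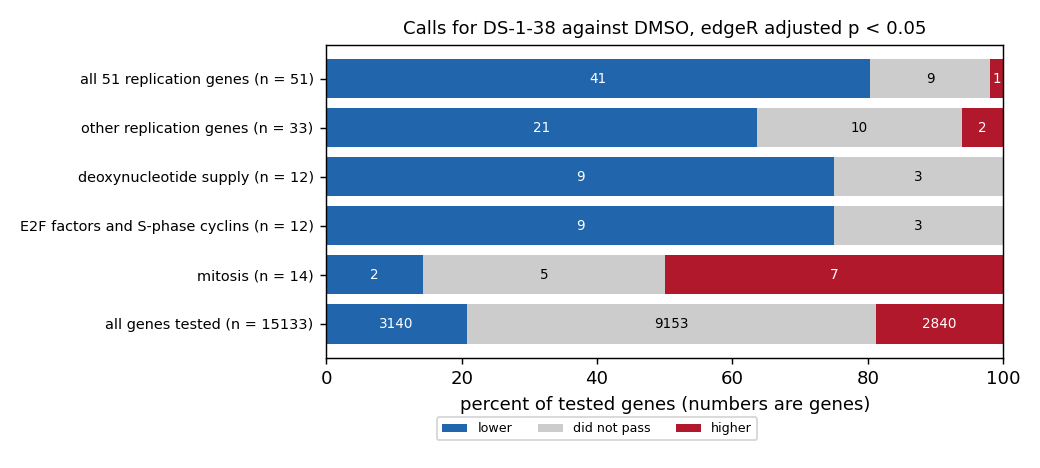
Share of tested genes called lower (blue), called higher (red) or not passing (grey) in each list and over all 15133 tested genes, DS38 against DMSO, edgeR adjusted p under 0.05; numbers in the bars are genes. The 51 replication genes show 41 lower and 1 higher, and the 14 mitosis genes 2 lower and 7 higher.

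The change was set against level and gene length as a description. Across genes, which are not independent replicates and share the same libraries, Spearman's rho of the log2 fold change with CPM per kilobase in DMSO was -0.226, and with CPM it was -0.01. With the deposited gene length rho was 0.299 over the 51 genes, against 0.223 over all 15133 tested genes. The part of gene length in these changes was not tested.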

How the data were processed

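Read counts per gene, as deposited by the authors, were used as they are for 4 DMSO and 4 DS38 libraries of MB21 cells, and gene lengths in bases came from the same table. Per the labels' protocols, RNA was column-purified and libraries were made with a Kapa mRNA kit. Alignment and counting tools in the submitters' processing notes are STAR (2.7.9a) and featureCounts of Subread (2.0.3), with edgeR in R (4.1.0). The mouse build GRCm39 and the human build GRCh38.p13 are both listed. Strand setting, multiple matches and annotation release were not given in the sources used here. Symbols came from GENCODE M21 (52083 of 55416 identifiers, and all 51 replication genes), which also gave exon overlap with other genes. Promoters came from RefSeq GRCm38.p6.

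Genes were tested with edgeR 4.0.16 (R 4.3.3), robust quasi-likelihood, TMM factors (0.975 to 1.03), the default filterByExpr minimum of 10 counts, and Benjamini-Hochberg adjustment over 15133 genes at 0.05. The common biological coefficient of variation was 5.53%. The TMM factors did not overlap between treatments, at 0.975 to 0.984 in DMSO and 1.01 to 1.03 in DS38. TMM scaling therefore lowers log2 fold changes relative to library totals alone. Over all tested genes their median was -0.01 with TMM and 0.05 with library totals alone, so small falls depend on this choice. Standard errors are the log2 fold change over the square root of F. CPM are TMM-adjusted, except for the cell marker lists, which use plain totals. Ratios were tested by exact permutation in SciPy 1.17.1. The tests were first checked on simulated data. Alternatives were other scalings, DESeq2 1.42.0, other filters, a replicate block, left-out libraries and, added after seeing the data, leaving out DS38 replicates 1 and 2 or 3 and 4. The genes, lists and pairs were chosen with earlier results of these data known. All 51 genes could be named; from the other lists, those with the smallest p (6 further replication genes, 4 per other list) and those against the list's direction were named, except 1 gene that is not reported here.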

Additional observations from a re-analysis of the deposited data

Results flagged for a closer look

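In 118 groups of 4 libraries (51 genes and 8 ratios in each treatment), 4 held a library far from the other 3 by Dixon's criterion, which sets the gap to its nearest neighbour against the range of the group. Chance gives this in about 5% of groups. Pola2 in DS38 replicate 4 stood at 114 CPM, against 104.0 to 104.8 CPM in the other DS38 libraries. Rfc5 in the same library stood at 68.8 CPM, against 62.3 to 63.0 CPM. Pold1 in DMSO replicate 1 stood at 121 CPM, against 114 to 115 CPM in the other DMSO libraries. Pold3 in the same library stood at 89.7 CPM, against 88.2 to 88.4 CPM.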

How the results depend on the processing

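Of the 41 falls, 33 passed in all 17 alternatives, and Orc4 rose in each of them. The count of falls was 37 to 41 when 1 library was left out, 35 without both libraries numbered 1 and without DS38 replicates 1 and 2, 38 without DS38 replicates 3 and 4, 35 with library totals alone, 39 with the replicate block and with at least 50 counts in 4 libraries, 40 with DESeq2 size factors, 41 in DESeq2 and 42 with no filter on low counts. The falls lost somewhere were Cdc7, Gins2, Gins3, Ticrr, Pold1, Pole2, Rfc1 and Fen1. With the replicate block Pole2 (adjusted p = 0.0533) and Rfc1 (0.0715) were lost, and no other call of the 51 changed. Whether the numbers pair the libraries is not settled. Deviations from the group means correlated at 0.331, -0.07, 0.067 and -0.082 for replicates 1 to 4. Between libraries of unlike number the correlations ran from -0.247 to 0.187. Over all genes, 47.5% of calls were rises, against 64.3% with library totals alone. The rises over all genes numbered 2840, and 1780 without DS38 replicates 1 and 2, where fewer libraries entered. Some differences that did not pass changed sign. Orc1 turned to 0.0040 with DESeq2 size factors, 0.058 with library totals alone, 0.013 under the stricter filter, 0.062 without both libraries numbered 1, 0.052 without DS38 replicates 1 and 2 and, leaving out 1 library, its value ran from -0.0289 to 0.0353. With library totals alone Orc3 turned to 0.024, Orc6 to 0.00028, Mcm2 to 0.0070 and Rpa1 to 0.011, and without both libraries numbered 1 Orc6 turned to 0.026. The fewest reads of the 51 genes stood behind Fen1, with 181 to 343 counts per library, and Orc1, with 290 to 474. How much of their standard errors (0.098 and 0.069 on the log2 scale) is counting error was not separated.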
